A study of Arabidopsis thaliana with 3 samples.

Results

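The genes IBM1 (AT3G07610), RPP7 (AT1G58602), AT3G05410 and AT1G11270 of Arabidopsis thaliana are known for silenced repeats or transposons inside their introns, and were chosen by locus tag for that reason. They are 4 of the 37899 nuclear genes of the gene table used, and all 4 lie in the chromosome arms. Nucleosomes released from leaf nuclei (plants 2 to 3 weeks old) by micrococcal nuclease, an enzyme that cuts the DNA linking them, were immunoprecipitated with an antibody to H2A.W.7 or to H2A.W.6. Each immunoprecipitation was 1 library, with 1 further library labelled as control, and the labels give no genotype or treatment that differs between them. The deposited H2A.W.7 lists hold 25393 regions, 7750 of them in the arms, and the H2A.W.6 lists hold 18107, with 3982 in the arms. Only positions are listed. The sequencing depth behind them is therefore unknown, and with 1 library per variant a difference between variants cannot be tested.

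H2A.W is a plant class of histone H2A that marks heterochromatin, the compact chromatin of transposons and repeats. When a transposon settles inside an intron, the host gene must be transcribed through silent chromatin, and the full-length messenger RNA depends on reading past cryptic polyadenylation sites in the element. In Arabidopsis the RNA-binding, chromatin-reading protein IBM2 and the PHD-finger protein EDM2 act together at such introns, and their loss gives shortened transcripts. IBM1 is a JmjC histone demethylase that removes methylation of histone H3 lysine 9 from gene bodies. RPP7 is an NLR immune receptor against downy mildew, AT3G05410 encodes a protein of the PsbP family of photosystem II, and AT1G11270 encodes an F-box protein.

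The 4 genes differed widely in the deposited regions. AT1G11270 had over 30% of its body in regions of each variant, RPP7 had a few short regions that the variants did not share, and IBM1 and AT3G05410 had no listed region of either variant in the body or within 2 kb of it. A base of H2A.W.7 lay in the bodies of 2 of the 4 genes (50%, exact 95% Clopper-Pearson interval 6.76 to 93.2%), and a base of H2A.W.6 in those of the same 2. Among the 25341 arm protein-coding genes, 4.99% had any H2A.W.7 base in the body, 2.51% any H2A.W.6 base and 2.1% bases of both. The 4 genes are long, between 6714 and 19695 bp, and among the 547 arm protein-coding genes of at least 6714 bp the shares were 6.03% (H2A.W.7), 3.66% (H2A.W.6) and 2.56% (both). When only regions at or above the median length of their list were used, RPP7 had none left and AT1G11270 alone remained. With 4 genes, chosen for their introns, these counts are a description, and the interval covers counting error only. The genes were not drawn at random, so the interval bounds no share in a wider set and is not a test against the background shares.

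**Figure D1:**
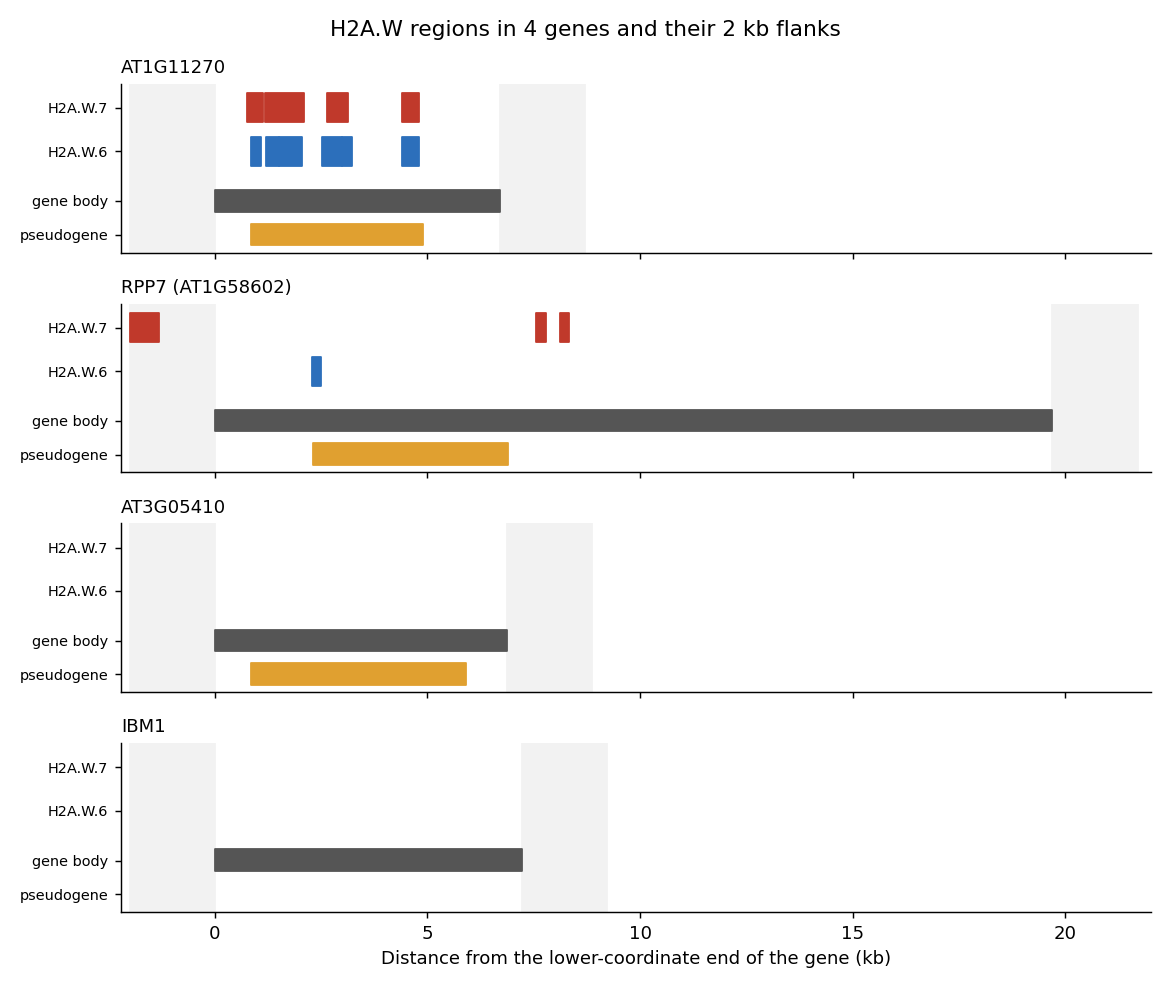
Regions of H2A.W.7 (red) and H2A.W.6 (blue) in the 4 genes and their 2 kb flanks (light grey), by distance from the lower-coordinate end of each gene in kb, with the gene body (dark grey) and any annotated pseudogene inside it (orange). AT1G11270 shows stacked red and blue bars over its pseudogene, RPP7 shows 3 bars in the body that do not stack, and AT3G05410 and IBM1 show none.

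The F-box gene AT1G11270 carried most of the covered sequence. Of its 6714 bp, H2A.W.7 regions covered 2200 bp (32.8%) and H2A.W.6 regions 2150 bp (32%), a ratio of 1.02. The ratio was 1.58 with regions at or above the median length, which dropped H2A.W.6 regions of 235, 290 and 230 bp and left 1395 bp. With regions merged across gaps of up to 1000 bp, H2A.W.7 covered 2800 bp and H2A.W.6 covered 2780 bp. The 2 variants lay on largely the same bases, since 1950 bp were in both, which is 88.6% of the H2A.W.7 bases and 90.7% of the H2A.W.6 bases. H2A.W.7 alone held 250 bp, and H2A.W.6 alone held 200 bp. AT1G11270 held 82.9% of the H2A.W.7 bases found in the 4 bodies together, and 90.5% of the H2A.W.6 bases.

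The H2A.W.7 regions of AT1G11270 were 4 in number, on TAIR10 chromosome 1 at 3781136 to 3781530, 3781581 to 3782475, 3783026 to 3783530 and 3784791 to 3785195. The H2A.W.6 regions were 6, at 3781251 to 3781485, 3781601 to 3781890, 3781911 to 3782430, 3782921 to 3783385, 3783391 to 3783620 and 3784786 to 3785195. Both variants therefore lay in the same few blocks, and those of H2A.W.6 were split into more pieces, parted by as little as 5 bp. The longest H2A.W.7 region, 895 bp, was met by H2A.W.6 over 90.5% of its length, and 15.5% of the H2A.W.7 arm regions were at least as long. The longest H2A.W.6 region, 520 bp, was met by H2A.W.7 over 100% of its length, and 32.9% of the H2A.W.6 arm regions were at least as long. Both variants ended at the same base on the higher-coordinate side, 3785195, and began 5 bp apart in that last block. On the lower-coordinate side H2A.W.7 began first, 750 bp into the gene, and H2A.W.6 began 865 bp into it.

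Taken as bases of either variant, AT1G11270 held 4 covered stretches within a span of 4060 bp, 2400 bp in all or 35.7% of the body. The stretches were parted by gaps of 50, 445 and 1165 bp free of both variants. The outermost 750 bp of the gene on the lower side and 1904 bp on the higher side had no region. A pseudogene, AT1G11265, of 4059 bp lies wholly inside the gene and makes up 60.5% of it. H2A.W.7 covered 2101 bp of that pseudogene (51.8%) and left 99 covered bp outside it, and H2A.W.6 covered 2150 bp (53%) with 0 bp outside. The gene table has no exons, introns or transposon annotation, and transposon genes stand in its pseudogene class, so the pseudogene marks an inserted element by position only.

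AT1G11270 stood alone in its surroundings. Its 2 kb flanks held 0 bp of H2A.W.7 and 0 bp of H2A.W.6. Outside the body, the nearest H2A.W.7 regions were 17.2 kb away on the lower side and 39.2 kb on the higher side. The nearest H2A.W.6 regions were 435 kb and 39.2 kb away. The sugar transporter gene STP1, whose annotated end overlaps AT1G11270 by 438 bp, had no base of either variant, and neither had AT1G11280, which begins 218 bp beyond the other end. Among the 25341 arm protein-coding genes ordered by covered length, AT1G11270 had rank 32 for H2A.W.7 and rank 23 for H2A.W.6. At least 30% of the body lay in H2A.W.7 regions in 2.28% of those genes and in H2A.W.6 regions in 1.43%. Among the 547 long genes these shares were 1.1% and 0.914%.

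The immune receptor gene RPP7, with an annotated body of 19695 bp, had short and separate regions. Its shares and free stretches depend on that extent, which is the table's and was not checked against transcripts. H2A.W.7 covered 455 bp (2.31%) in 2 regions, TAIR10 chromosome 1, 21753901 to 21754150 and 21754471 to 21754675. H2A.W.6 covered 225 bp (1.14%) in 1 region, 21748636 to 21748860. The variants shared 0 bp in this gene, and 5040 bp lay between the H2A.W.6 region and the first H2A.W.7 region. All 3 were near the smallest length in either list, 200 bp: 82.2% and 98.1% of the H2A.W.7 arm regions were at least as long as the 250 and 205 bp ones, and 88.9% of the H2A.W.6 arm regions as long as the 225 bp one. RPP7 too holds a pseudogene inside its body, AT1G58561, of 4572 bp. H2A.W.7 covered 0% of it, and H2A.W.6 covered 186 bp (4.07%) at its lower-coordinate edge. The H2A.W.7 regions lay past the pseudogene, 7.55 to 8.32 kb into the gene, and the last 11373 bp of the body had no region.

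Of the 4 genes, only RPP7 had a region in its flanks. An H2A.W.7 region of 795 bp, chromosome 1, 21744256 to 21745050, put 697 bp into the flank on the lower side, and H2A.W.6 had 0 bp in either flank. Flanks of 1 kb held 0 bp of H2A.W.7, and flanks of 5 kb held 1457 bp. A region in the 2 kb flanks is common, found for H2A.W.7 in 24.1% of arm protein-coding genes and for H2A.W.6 in 8.41%, so counts of 1 of 4 and 0 of 4 are close to that background. The surroundings of RPP7 were also the richest of the 4. Within 20 kb on each side, a window chosen after the values were seen, H2A.W.7 covered 9485 bp (23.7%) in 14 regions and H2A.W.6 covered 3605 bp (9.01%) in 10. The same window held 2 H2A.W.7 regions (660 bp) and 0 H2A.W.6 regions at AT1G11270, and 0 of either variant at AT3G05410 and IBM1. RPP7 lies 4.25 Mb from the centromeric part of its chromosome, and the other genes lie 8.61 Mb (AT1G11270), 8.97 Mb (IBM1) and 9.84 Mb (AT3G05410) from theirs. The RPP7 locus is known for near-identical gene copies, so reads of one copy may have been counted at another, which was not tested.

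AT3G05410, the PsbP-family gene, had 0 bp of H2A.W.7 and 0 bp of H2A.W.6 in its 6863 bp and in its flanks. It holds the longest pseudogene of the 4 genes, AT3G05415, of 5052 bp or 73.6% of the body, and that pseudogene too had 0 bp of each. The nearest H2A.W.7 region lay 41 kb away, on TAIR10 chromosome 3 at 1602561 to 1603005, and the nearest H2A.W.6 region 131 kb away, at 1692661 to 1692910. Its neighbours AT3G05400 and ACBP4, an acyl-CoA-binding protein gene that begins 135 bp beyond the body, had no base of either variant.

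IBM1, the demethylase gene, likewise had 0 bp of H2A.W.7 and 0 bp of H2A.W.6 in its 7230 bp and its flanks. The gene table places no pseudogene inside IBM1. The nearest H2A.W.7 region, on chromosome 3 at 2362271 to 2362815, was 63.1 kb away, and the nearest H2A.W.6 region, at 2361126 to 2361540, was 64.3 kb away. The 4 annotated genes in its flanks, AT3G07590, AT3G07600, AT3G02025 and AT3G07620, had no base of either variant. An empty body is the common state, at 94.6% of arm protein-coding genes and 92.9% of those of at least 6714 bp. A gene with no listed region is empty only in the authors' lists. How they called regions is not known here, so signal that was not called could not be seen.

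Among arm pseudogenes of 1 kb or more, a limit set after the values were seen, 8 lie wholly inside a protein-coding gene, and 3 of the 8 are those of AT3G05410, RPP7 and AT1G11270. Of these 3, H2A.W.7 had a base in 1 and H2A.W.6 in 2. Of the other 5, H2A.W.7 and H2A.W.6 each had bases in 3, and each covered more than 50% of those. AT4G22415, inside AT4G22410, was covered over 93.9% by H2A.W.7 and 97.9% by H2A.W.6. AT4G11375, inside AT4G11373, was covered over 94.8% and 99.9%, and AT2G34130, inside AT2G34100, over 65.2% and 84.7%, in the same order of variants. AT3G60965 and AT1G50810 had 0% of both, as AT3G05415 had. Cover of the nested pseudogenes thus ran from 0% of both variants to 94.8% (H2A.W.7) and 99.9% (H2A.W.6), with AT1G11265 at 51.8% and 53%. Of the 495 arm pseudogenes of that length outside protein-coding genes, 78.8% had an H2A.W.7 base, 77.4% an H2A.W.6 base and 20% neither. The 8 nested ones gave 50%, 62.5% and 37.5%, and with 8 of them these shares were not tested against each other.

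**Figure D2:**
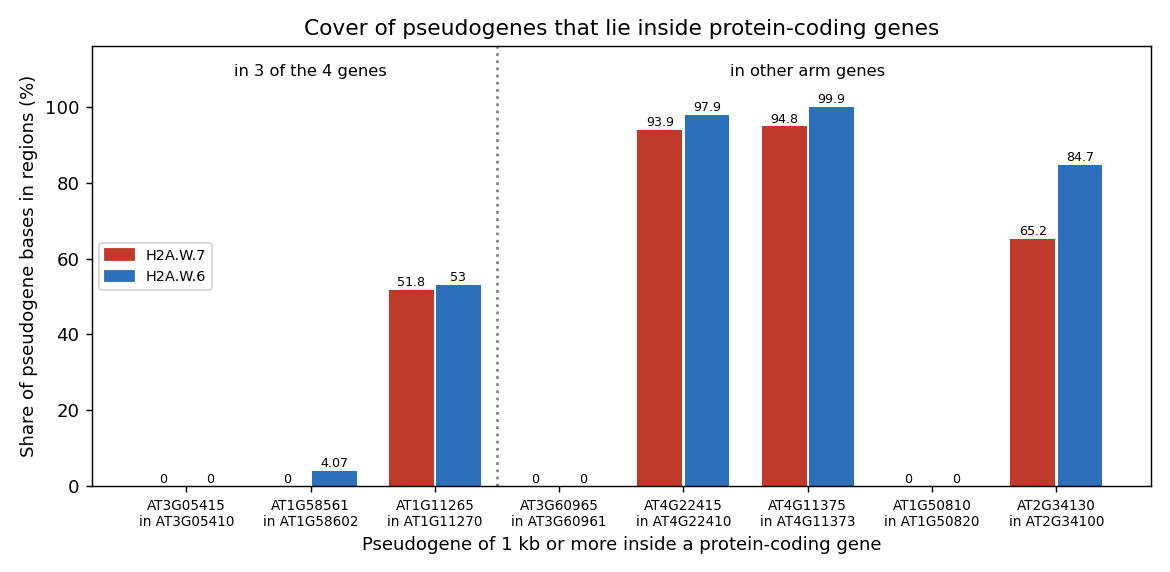
Share of bases in H2A.W.7 (red) and H2A.W.6 (blue) regions, in percent, for the 8 arm pseudogenes of 1 kb or more that lie inside a protein-coding gene, with the 3 in AT3G05410, RPP7 (AT1G58602) and AT1G11270 left of the dotted line. The pseudogene of AT1G11270 reaches 51.8% and 53%, and 3 of the 5 in other genes reach 65.2% or more.

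The pattern of AT1G11270 was rare, where the pattern means that H2A.W.7 and H2A.W.6 overlap by at least 1 bp inside the body and that neither has a region within 500 bp of either end, inside or outside. It was found in 44 arm protein-coding genes (0.174%), and in 1.1% of those of at least 6714 bp. A body of 1000 bp or less could not have it by this definition. Bases of both variants, in any position, lay in the bodies of only 2.1% of arm protein-coding genes and 2.56% of the long ones. RPP7 had both variants inside its body and free ends, but not on the same bases, and so was not counted, and AT3G05410 and IBM1 had no region. Ordered by bases in both variants, AT1G11270 came 2nd, after AT2G34100, which had 6055 bp of H2A.W.7, 5000 bp of H2A.W.6 and 3600 bp of both. These were the only 2 of the 44 that hold a pseudogene of 1 kb or more. Most genes with the pattern had little of it, with a median of 230 shared bp. The number of such genes moved with the margin and the length of regions used, from 12 to 72.

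The 10 other genes with the pattern and the most bases in both variants, over 1 library per variant, were AT2G34100, AT3G28780, AT2G37370, RR19, GH9B15, AT2G03330, AT5G25320, AT2G02635, AT5G42930 and ABCB3. AT3G28780 came next below AT1G11270, with 1305 bp of H2A.W.7, 1230 bp of H2A.W.6 and 1230 bp of both. RR19, of the response regulator family, had 910 bp of H2A.W.7 and 770 bp of H2A.W.6, and ABCB3, an ABC transporter gene, had 745 and 565 bp. AT2G37370 (2000 and 810 bp), GH9B15 (1500 and 745 bp), AT2G03330 (2280 and 735 bp) and AT2G02635 (1815 and 575 bp) had far more H2A.W.7 than H2A.W.6, unlike AT1G11270. The longer cover was that of H2A.W.7 in 10 of the 10 and in 35 of all 44 genes with the pattern, while H2A.W.6 had the longer cover in 9. AT1G11270 is itself among the 35, but its variants were nearly equal, at 2200 and 2150 bp. Nearly equal cover was not special to it, since AT3G28780 and AT5G25320 (680 and 655 bp) had it too. The H2A.W.7 arm list is also the longer, with 7750 regions against 3982. How often H2A.W.7 leads over all arm genes with both variants was not counted.

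**Figure D3:**
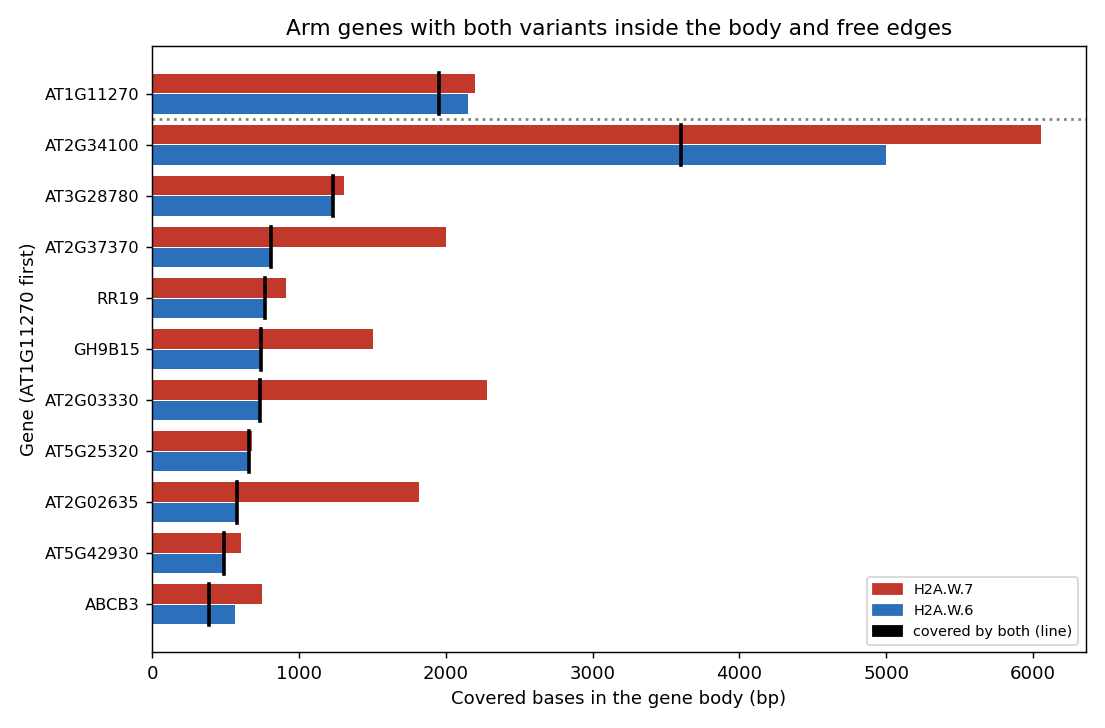
Bases covered in the gene body by H2A.W.7 (red) and H2A.W.6 (blue), in bp, for AT1G11270 and the 10 other arm genes with the most bases in both variants and free edges; the black line marks the bases in both. AT1G11270, with 2200 and 2150 bp, is exceeded by AT2G34100 in both variants.

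The machinery that acts at these introns had no H2A.W region in its own genes. Of 7 genes known as parts or partners of the IBM2 and EDM2 complex, EDM2 itself and the phosphatase gene CPL2 among them, 0 had a base of H2A.W.7 and 0 of H2A.W.6. The same held for 6 genes of histone H3 lysine 9 and DNA methylation, the methyltransferase genes SUVH4, SUVH5, SUVH6, CMT3 and MET1 and the remodeller gene CHR1, known as DDM1. Against a background of 4.99% (H2A.W.7) and 2.51% (H2A.W.6), a count of 0 in lists of this size does not set them apart.

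Listed relatives of IBM1, RPP7 and AT3G05410 were mostly free of regions as well. Of arm protein-coding genes, 94.6% are free of both variants, 4.99% have H2A.W.7 and 2.51% have H2A.W.6. For H2A.W.7 the JmjC and resistance lists stood above that share, and the PsbP list, with 0, below it. For H2A.W.6 only the resistance list stood above. With lists of 4 to 9 genes these differences were not tested. Of 4 other JmjC genes of the IBM1 family, 1 had a base of H2A.W.7 and 0 of H2A.W.6: AT1G62310 had 390 bp of H2A.W.7 (6.11%), on chromosome 1 at 23033676 to 23034065, 273 bp from the lower end of the gene. Of 9 other resistance genes near RPP7, 2 had a base of H2A.W.7 and 1 of H2A.W.6. Where genes of this list are near-identical copies, reads of one may have been counted at another, so a value of 0 is uncertain. This was not tested. AT1G58390 had 255 bp of H2A.W.7, 21691386 to 21691640, and 240 bp of H2A.W.6, 21692711 to 21692950, and the variants shared no base there, as in RPP7. AT1G59780 had 265 bp of H2A.W.7, 21995391 to 21995655, and 0 bp of H2A.W.6. Of 9 other PsbP-domain genes, 0 had a base of either variant. With regions at or above the median length, 0 of the JmjC genes and 0 of the resistance genes had a base of H2A.W.7 or of H2A.W.6. Neither variant taken alone covered more than 7% of the body of any of these relatives. In AT1G58390 the 2 variants, at 6.7% and 6.31%, lay on different bases, so their cover adds up to more than that. Other F-box genes, the relatives of AT1G11270, were not examined.

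**Figure D4:**
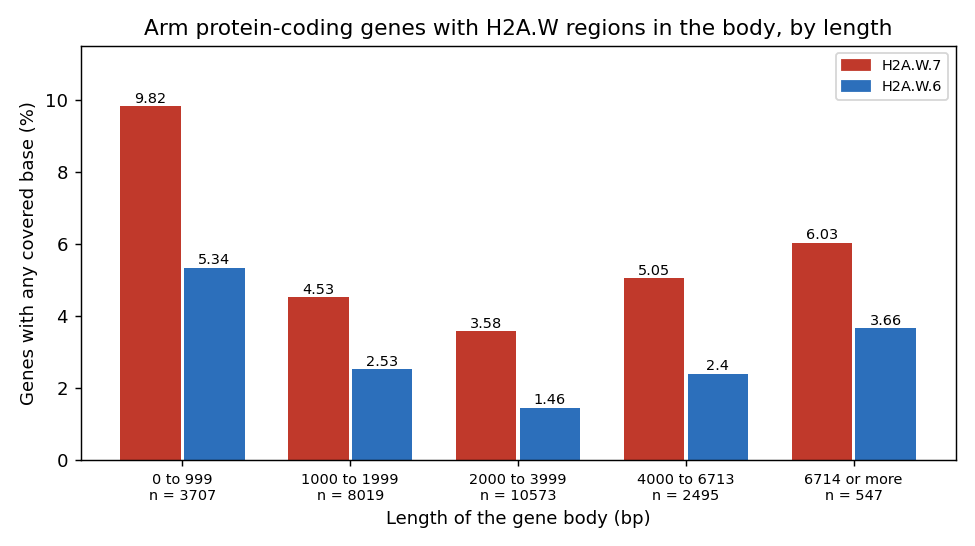
Percent of arm protein-coding genes with any base of H2A.W.7 (red) or H2A.W.6 (blue) in the body, in 5 classes of body length in bp, with the number of genes in each. In the class of the 4 genes, 6714 bp or more, 6.03% had H2A.W.7 and 3.66% had H2A.W.6, and the shortest class had the most, 9.82% and 5.34%.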

How the data were processed

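The authors deposited an arm list and a centromeric list of enriched regions per immunoprecipitation, with chromosome, start and end and no height, count or score. The submitters' processing notes name TAIR10 and bedtools. How reads were aligned, regions called and the control used is not given in the sources used here, and the control library was not analysed here. Positions are printed counted from 1. Genes came from a RefSeq table of the TAIR10.1 assembly, of which no coordinates are printed. Moved by up to 10000 bp either way, its arm pseudogenes were best covered with no shift, at 56.2% of bases for H2A.W.7 and 60.3% for H2A.W.6. It holds no strand, exons or introns, so ends are called lower and higher by coordinate.

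Covered and shared bases were computed in Python 3.11.15 with numpy 2.4.6, after a test on simulated lists. An overlap is 1 bp or more. Arms end at the multiple of 100 kb between the last arm and first centromeric region. The 4 genes and all 5 gene lists were chosen with earlier results of these data known. Named were the 4 genes, genes in or at their bodies and flanks, list genes with a region, and the 10 other genes with the interior pattern and most shared bases. The hosts of nested pseudogenes were added after their values were seen. Alternatives were stricter, merged or trimmed regions, other flanks and other margins.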

Additional observations from a re-analysis of the deposited data

How the results depend on the processing

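With regions at or above the median length of their list (395 bp for H2A.W.7, 360 bp for H2A.W.6), RPP7 dropped out and 1 of the 4 genes had H2A.W.7 and 1 had H2A.W.6 in the body. Covered bases in the 4 bodies were then 2200 for H2A.W.7, within 1.5 times the full value, against 1395 for H2A.W.6 and 1285 for both, and the ratio in AT1G11270 became 1.58. The same lists left 12 genes with the interior pattern, 9 of them among the 44, and, in an alternative chosen after seeing the data, 0 JmjC and 0 resistance genes with a region. Flanks of 1 kb held 0 bp of H2A.W.7 and flanks of 5 kb held 1457 bp. Margins of 200 and 1000 bp gave 72 and 16 genes with the interior pattern, and AT1G11270 had it under 4 of the 5 settings tried, all but the 1000 bp margin. Of 36 alternative values for 18 results, 24 stayed within 1.5 times and 12 moved further, and none of the merged lists moved one. Some of the 24 set 0 against 0, where stricter regions or narrower flanks could not give another value. No paired analysis was possible because each variant has 1 library. Depth is unknown, and no interval for a covered length can be given.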

Other observations

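Outside the genes named by rule, 2 genes with the interior pattern were picked after their values were seen for the gap between the variants. AT4G16920 had 2405 bp of H2A.W.7 and 345 bp of H2A.W.6 in a body of 7851 bp. EXO70H5, of the family of exocyst subunits that guide secretory vesicles, had 1300 bp of H2A.W.7 and 305 bp of H2A.W.6. In both genes 100% of the H2A.W.6 bases lay in H2A.W.7 regions, against 90.7% in AT1G11270. The same held for several other genes with the pattern, AT3G28780 and AT5G25320 among them.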
